A study of Plecoglossus altivelis with 2 samples.

Results

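Larvae of ayu (Plecoglossus altivelis) were held in brackish water (BW) or fresh water (FW). In 90 sets of assembled transcripts, the summed estimated counts stayed within 2-fold between the salinities. The shares of single transcripts in these counts changed strongly. These sets are called switch components here. A component is the set of assembled transcripts that share a component identifier, and the files hold 70911 of them. A switch component had at least 2 transcripts, at least 1000 estimated counts in each library, a total that differed less than 2-fold after scaling by library total, and a scaled sum of both libraries under 100000. In addition, at least 1 of its transcripts took a share of the component's counts that differed by 50 percentage points or more between the libraries. The components were thus selected on these same measured counts, so their share changes are given as a description and no test is attached to them.

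A gene can give several RNAs by alternative splicing, alternative starts or alternative poly(A) sites, and such forms can encode different proteins or carry different untranslated regions. A short-read assembler places transcripts with common sequence in 1 component. That set can hold splice forms, allelic forms from different fish or near-identical gene copies. These kinds cannot be told apart here, because the identifiers are paired with neither gene names nor sequences, so no gene role is given and no sequence is shown. Fish that move between rivers and the sea change the ion transport of gill, gut and kidney when salinity changes. The ayu is such a fish.

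BW larvae lived at 0.17 M NaCl (10 ppt) and FW larvae in fresh water, both at 20 to 22 °C. Fish were held in groups of 20, with 4 tanks for each salinity. After 4 weeks, material of 9 organs was mixed: gill, skin, kidney and intestine, which face the water or handle ions, together with brain, muscle, spleen, liver and heart. The labels give neither strain nor the number of fish in a mixture, and the salinities had tanks of their own. Each salinity has 1 library, so there is no replicate spread, no p-value is given and every difference lacks a replicate check. Tissue identity could not be checked against markers without gene names. In such mixtures, fewer cells of a type and less RNA per cell cannot be told apart, and neither can the proportions in which tissues were mixed.

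The estimated counts summed to 72013090 in BW and 72522809 in FW. Of 17288 components with more than 1 transcript, 5008 had at least 1000 counts in each library. The limit on the total removed 99 of these and the limit on the sum removed 35, which left 4874 steady components. The 90 switch components are 1.85% of them. They held 261911 counts in BW and 267157 in FW, or 0.364% and 0.368% of the library.

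Large share changes were uncommon among steady components. The largest share change of a transcript had a median of 10.5 points in the other 4784 steady components, and 99 of those lay between 40 and 50 points. In the switch components the median was 60.2 points. Changes of 50 to 60 points numbered 44, those of 60 to 70 points 20, those of 70 to 80 points 11 and those of 80 to 90 points 5. The other 10 were above 90 points and lay between 95.3 and 100. Counting error was small beside these values. The 95% interval of the share change (Newcombe's method on rounded counts) had a median half-width of 2.15 points and a widest half-width of 3.31 points. It lay wholly above 50 points for 74 of the 90. These intervals cover counting error only and do not allow for the choice of components by the same share change. They leave out the error of dividing reads between similar transcripts, for which the files give no value, and PCR reads without molecular identifiers are not independent molecules.

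The clearest form of switch was a full exchange. In 8 of the 33 switch components with 2 transcripts, each library had at least 90% of its counts on a different transcript, a cutoff chosen after the values were seen. The share moved by 97.6 to 100 points in these 8, and the totals were 0.537 to 1.23 times as high in BW as in FW. In comp124082_c7, the form of 2472 bases (seq2) had 3216 counts in BW and 0 in FW. The form of 2483 bases (seq1) had 0 counts in BW and 4299 in FW. By counting error alone, a share of 0 there allows up to 0.0933% in BW and 0.0698% in FW, taking 3 counts as the limit for a count of 0. That limit treats every count as a read that tells the forms apart. Reads that fit both forms were divided by estimation, so the real limit is wider and is not known here. All estimated counts of this component were thus given to the shorter form in BW and to the longer form in FW.

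Another 3 components showed the same complete exchange at lower counts. In comp123918_c4, seq2 (2172 bases) had 1669.7 counts in BW and 0 in FW, while seq1 (2194 bases) had 0 and 1550.2. In comp124902_c7, seq1 (3981 bases) had 1456 counts in BW and 0 in FW, and seq2 (3967 bases) had 0 and 1703. In comp126930_c0, seq1 (3685 bases) had 1089 counts in BW and 0 in FW, and seq2 (3670 bases) had 0 and 1244. The totals were 1.08, 0.861 and 0.882 times as high in BW as in FW, in the order given. In all 3, as in comp124082_c7, no count was assigned to the same form in both salinities.

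In 3 components with more counts, a trace of the other form was measured in 1 salinity. In comp120909_c0, seq1 (1785 bases) had 10677 counts in BW and 165 in FW. Its partner seq2 (1739 bases) had 0 counts in BW and 8590.05 in FW, so that seq1 took 100% of the component in BW and 1.88% in FW. In comp117214_c0, seq2 (1630 bases) took 0.0872% in BW and 100% in FW, with 5.48 and 11785 counts. In comp125935_c5, seq2 (3586 bases) took 0.491% in BW and 100% in FW. These last 2 components had the lowest totals in BW relative to FW among the 8, at 0.537 and 0.632 times the FW total. A component of 3 transcripts behaved likewise: in comp121529_c4, seq1 (3374 bases) took 98.9% in BW and 0% in FW, and seq3 (3387 bases) took 0% and 99.3%. The last of the 8 with 2 transcripts, comp118204_c0, had both forms in both salinities and the smallest change, at 97.6 points. Its seq2 (788 bases) took 99.6% in BW and 2.01% in FW, and seq1 (808 bases) took 0.357% and 98.0%.

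**Figure D1:**
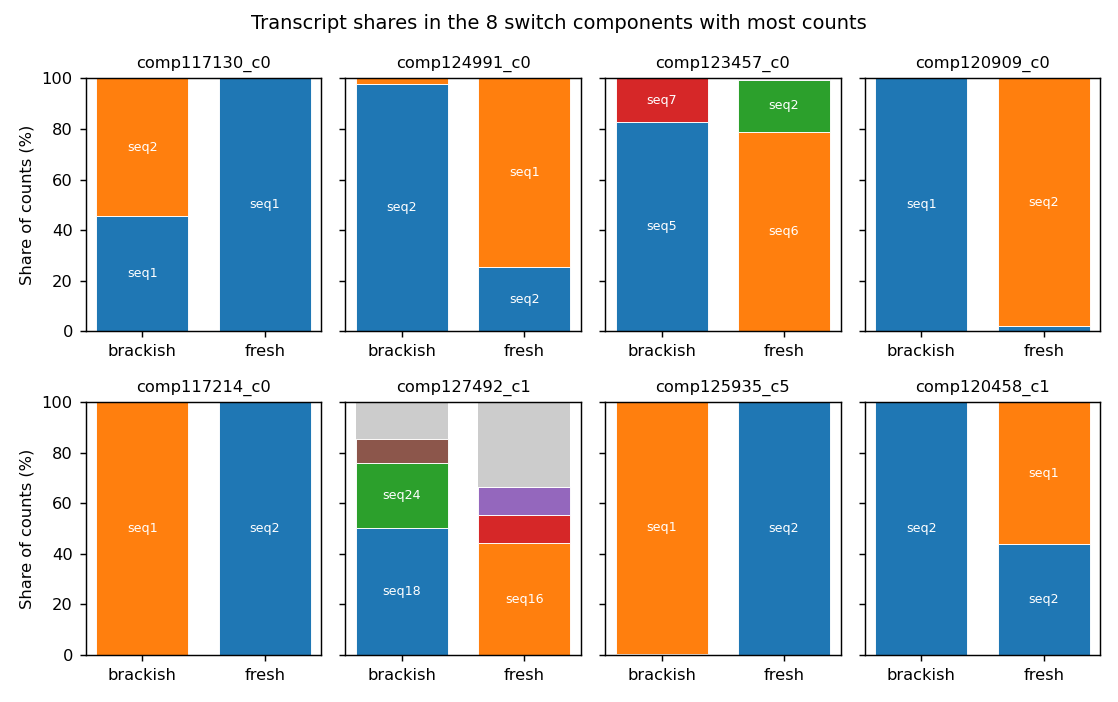
Share of the component's counts (y axis, percent) taken by each transcript in BW (left bar) and FW (right bar), for the 8 switch components with the largest scaled sum; each color is 1 transcript within a panel, labelled where it takes at least 14%, and grey is the sum of transcripts beyond the 6 largest. The bars of comp120909_c0, comp117214_c0 and comp125935_c5 change color almost completely, while comp117130_c0 and comp120458_c1 are mixed in 1 salinity and of a single form in the other.

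A second form had a single transcript in BW and a mixture in FW. In 16 components of 2 transcripts the lead transcript took at least 90% in BW and less in FW, and in 14 of these it took 100% in BW. The lead of the mixture in FW had a median share of 56.4%, with a range of 50 to 80.2%. A form at 100% in BW must be at 50% or less in FW to pass the rule. Mixtures near balance thus lie at the limit of the rule, and nothing is read from them. In comp120458_c1, seq2 (2109 bases) had 6515 counts in BW and 2854 in FW. Its partner seq1 (2095 bases) had 0 counts in BW and 3672 in FW, and the total was 1.01 times as high in BW. In comp124991_c0, seq2 (3363 bases) had 14533 counts in BW and 3938 in FW, and seq1 (3337 bases) had 305 and 11632. The share of seq2 was thus 97.9% in BW and 25.3% in FW, a difference of 71.9 to 73.4 points by its 95% interval, on a total 0.960 times as high in BW.

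The mirror image, mixed in BW and of a single form in FW, was found in 8 components of 2 transcripts. The lead in BW took a median of 53.9% there, with a range of 50.7 to 66.6%, and in 7 of the 8 the other form took 100% in FW. The rule sets the lower end of that range in the same way. The most abundant switch component belonged to this form. In comp117130_c0, seq2 (3554 bases) had 11932 counts in BW and 0 in FW, whereas seq1 (3540 bases) had 9963 and 15819. Its total was 1.39 times as high in BW, and the form with the larger share in BW was thus at 0 in FW. The last of the 33 components, comp87275_c0, was mixed in both: seq1 (851 bases) took 70.5% in BW and 19.2% in FW.

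**Figure D2:**
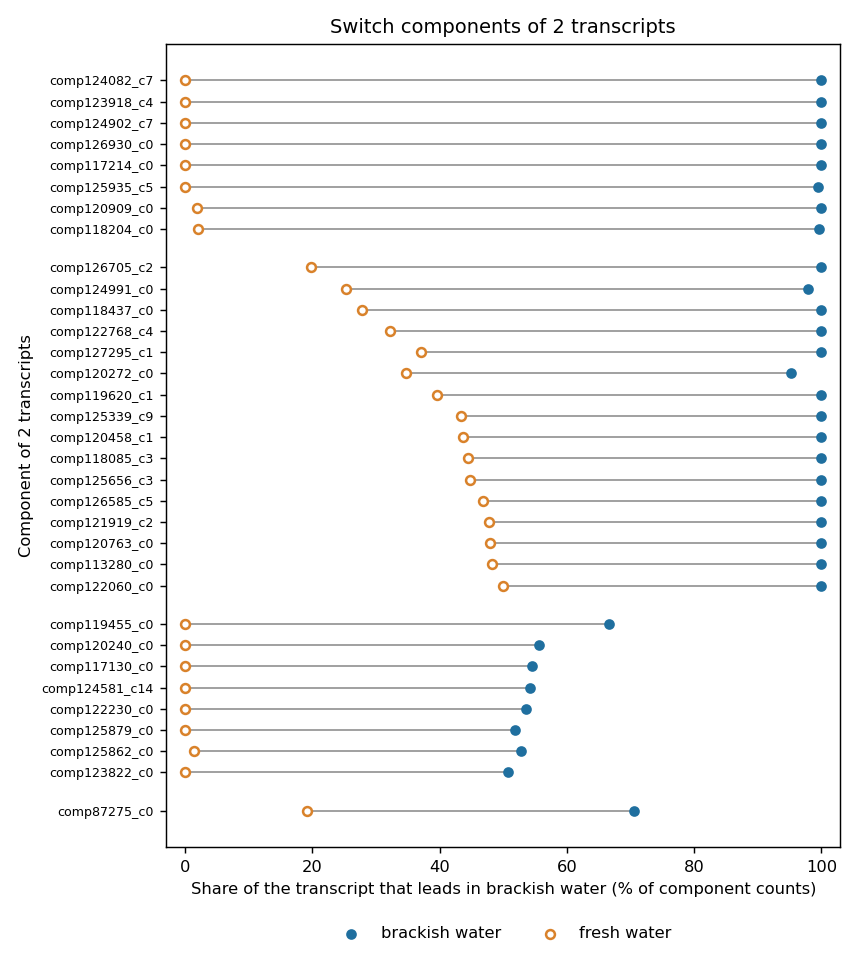
Share (x axis, percent of component counts) of the transcript that leads in BW, for the 33 switch components of 2 transcripts (y axis), in BW (filled) and in FW (open). From top to bottom the 4 blocks are the 8 full exchanges, the 16 of a single form in BW only, the 8 of a single form in FW only, and comp87275_c0; the open points of the second block and the filled points of the third lie mostly between 40 and 60%.

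Across all 90 switch components, of any number of transcripts, 9 had a lead of at least 90% in both libraries, 23 in BW only, 14 in FW only and 44 in neither. Lead transcripts differed between BW and FW in 84 of the 90, against 22.2% of all steady components. The rule nearly forces such a difference, so nothing is read from it. The transcript with the largest share change was higher in BW in 45 components and higher in FW in 45.

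The 6 components that kept their lead by counts, with a tie in FW counted as kept, changed in how far it led. In comp120932_c0, seq1 (4225 bases) took 97.7% in BW and 45.6% in FW, and in comp124709_c0, seq4 (3190 bases) took 88.7% in BW and 37.2% in FW. The reverse held in comp117238_c0, where seq3 (905 bases) took 44.1% in BW and 100% in FW. It held too in comp118988_c0, with 45.8% in BW and 97.0% in FW for seq3 (2588 bases), and in comp127429_c1, with 43.7% in BW and 94.5% in FW for seq11 (5771 bases). The last of the 6, comp122060_c0, had a tie in FW, where seq1 took 50% against 100% in BW. It thus had no lead in FW. With the tie counted as a weaker lead in FW, the lead was stronger in BW in 3 of these components and stronger in FW in 3. By the authors' deposited percent of component, which corrects for length, 2 of the 6 did change lead. In comp120932_c0, seq1 led in BW with 82.1% and seq2 (518 bases) in FW with 47.8%, and in comp118988_c0, seq4 (1058 bases) led in BW with 51.6% and seq3 in FW with 92.8%. These components, like others named below for a pattern, were picked after their values were seen.

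Among components of 3 to 10 transcripts, the largest change after that of comp121529_c4 was in comp120675_c0. There seq3 (1471 bases) took 85.2% in BW and 0% in FW, and seq1 (1482 bases) took 0% and 95.3%. In comp123242_c1, seq2 (1271 bases) took 78.3% in BW and 0% in FW, and seq5 (1256 bases) took 0% and 73.9%. Both were exchanges between forms of nearly equal length, each at 0% in the other salinity. Corrected for length, the leads of comp120675_c0 took 79.5% in BW and 93.2% in FW. Those of comp123242_c1 took 52.2% in BW and 45.9% in FW, so other forms then held much of that component. In comp126850_c0, by contrast, the BW lead seq6 (3715 bases) was still measured in FW, with 76.2% in BW and 5.62% in FW, while seq3 (3747 bases) took 0% in BW and 83.6% in FW.

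The number of forms in use was similar in the salinities. Transcripts with at least 5% of the counts summed to 198 in BW and 203 in FW over the 90 components. More forms passed that limit in BW in 28 components, more in FW in 34, and the number was equal in 28. In the 12 components with 11 or more transcripts, 51 forms passed it in BW and 44 in FW, of 258 assembled. Counts above 0 were given to 149 of those 258 in BW and to 116 in FW.

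Forms at 0 in a library were frequent. A transcript with at least 50 counts in BW and 0 in FW was present in 52 switch components, against 22.4% of steady components. The reverse, at least 50 counts in FW and 0 in BW, held for 59, against 23.3%. Both kinds occurred together in 28 of the 90, against 8.68%. These contrasts were also part of the choice of components. Of the 554 transcripts in the switch components, 193 had counts in both libraries, 146 in BW alone, 137 in FW alone and 78 in neither.

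In 8 of the 57 switch components with 3 or more transcripts, several BW forms could be matched with FW forms by length. Transcripts were picked that took at least 5% of the counts in 1 library and under 1% in the other, and 10 switch components held at least 2 for each salinity. In 8 of these 10, at least 2 of the BW transcripts could be paired with FW transcripts at 1 and the same length difference. All steady components with 2 such transcripts for each salinity numbered 70, and 35.7% of them had such pairs. Without the switch components it was 17 of 60 (28.3%). This search was made after the values had been seen, and no test is attached to it. It picked transcripts by the same shares that chose the components. All length differences between them were tried and the best was kept, which makes a match easier. The contrast is thus a description only.

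In comp123457_c0, the BW forms of 2847 and 2946 bases (seq5 and seq7) took 82.7% and 17.3% of the BW counts and had 0 counts in FW. The FW forms of 2856 and 2955 bases (seq6 and seq2) took 78.9% and 20.6% of the FW counts and had 0 counts in BW. Each FW form was 9 bases longer than its BW partner, and in each salinity the shorter of the 2 forms took most of the counts. In comp126613_c2, forms of 2507 and 4002 bases took 79.96% and 20.04% in BW, and forms of 2493 and 3988 bases took 83.5% and 14.4% in FW, each 14 bases shorter. In comp121532_c1, forms of 2694 and 2891 bases took 58.8% and 41.2% in BW, and forms of 2707 and 2904 bases took 74.3% and 25.1% in FW, each 13 bases longer. The order of the pair was the same in both salinities in these 3 components.

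The offset held over more than 2 pairs in 2 components. In comp127492_c1, which has 25 transcripts, 4 BW forms of 3391, 3288, 2912 and 2809 bases had FW partners of 3371, 3268, 2892 and 2789 bases. All 4 BW forms were 20 bases longer. Their shares did not match in size: the form of 2809 bases took 50.03% in BW, while its partner of 2789 bases took 7.67% in FW, where seq16 of 2589 bases led with 44.2%. In comp125417_c0, forms of 5964, 4037 and 3091 bases in BW had partners of 5979, 4052 and 3106 bases in FW, each 15 bases longer. Here the form of 5964 bases took 56.1% in BW and its partner 26.5% in FW.

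The remaining 3 components had 2 pairs each. In comp126707_c0 the partners were of equal length, at 3699 bases (68.2% in BW, 76.1% in FW) and 2160 bases (29.3% in BW, 16.8% in FW). In comp125568_c7 the BW forms were 13 bases longer, beside a form of 1850 bases (seq7) that took 26.2% in BW and 29.3% in FW, and in comp126505_c9 they were 1033 bases longer. Of the 2 components with most transcripts, comp126561_c1 lacked 2 such transcripts for each salinity and was not searched for pairs. In comp127482_c0 the search found no more than 1 pair at any length difference. Of the 53 transcripts of comp126561_c1, 7 took at least 5% in BW and 3 in FW, where seq16 (3286 bases) took 74.7% against 19.5% in BW. Of the 47 transcripts of comp127482_c0, 7 took at least 5% in BW and 3 in FW, where seq33 (5052 bases) took 64.3% and had 0 counts in BW.

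**Figure D3:**
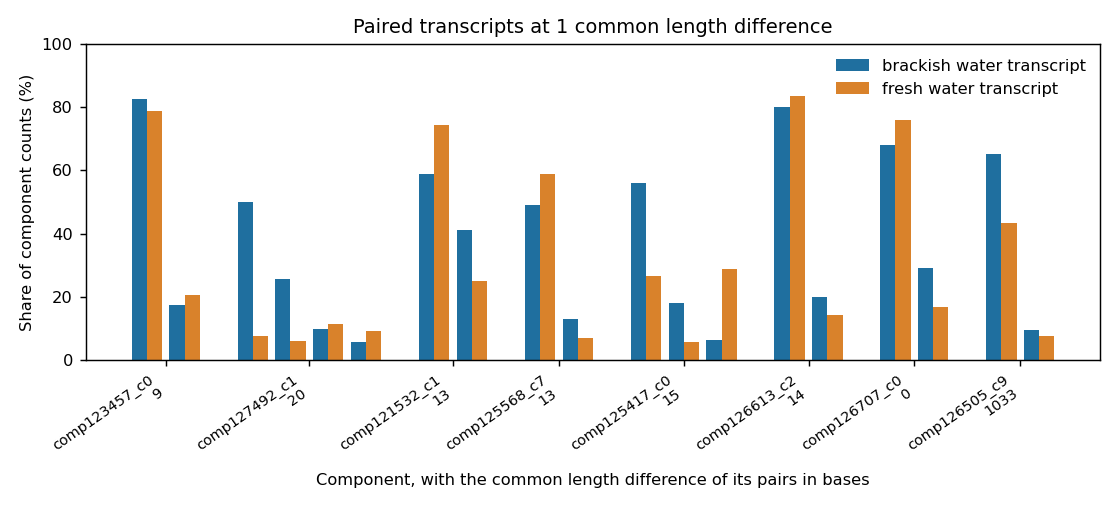
Share of component counts (y axis, percent) of paired transcripts in the 8 switch components with matched sets; each blue bar is a transcript measured in BW and the orange bar beside it is its partner measured in FW, and the number under the component (x axis) is the common length difference in bases. The pairs keep their order of abundance in the 6 components with 2 pairs, and the widest gap within a pair is that of 50.03% in BW and 7.67% in FW in comp127492_c1.

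The exchanged forms were of similar length. Among the 84 switch components with different leads, the lead transcripts differed by a median of 19.5 bases, or 0.995% of the longer form. In the 997 other steady components with different leads the median was 431 bases, or 15.4%. Among components of 2 transcripts with different leads the medians were closer, at 20 bases in 32 switch components and 119.5 bases in 56 others. The leads lay within 30 bases of each other in 53 of the 84 switch components, against 14.4% of all 1081 steady components with different leads. A difference of 10 to 15 bases alone accounted for 28 of the 84 (33.3%) and for 45 of the 997 (4.51%). A difference of 1000 bases or more was found in 3 of the 84 and in 279 of the 997. Counts grow with transcript length, so the length difference is not fully independent of the rule. With the authors' deposited percent of component, which corrects for length, 80 of the 90 switch components had different leads. Their median difference was then 21 bases. Choosing the components anew by that percent gave 83, and the median was 22.5 bases over the 80 of them with different leads.

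**Figure D4:**
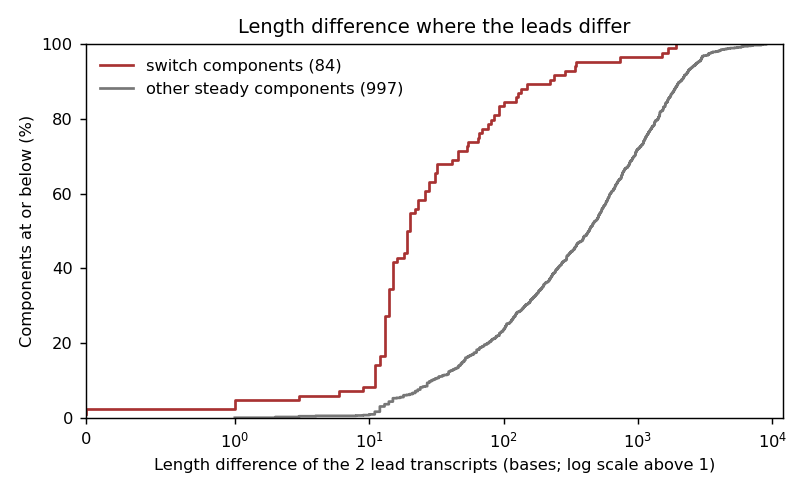
Percent of components (y axis) whose lead transcripts in BW and FW differ by at most a given number of bases (x axis, logarithmic above 1), for 84 switch components and 997 other steady components with different leads. The switch components climb steeply between 10 and 30 bases, and their median of 19.5 bases lies far left of 431 bases.

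Components of 2 transcripts show the length pattern without a choice of leads. Of 129 steady components whose transcripts differ by at most 30 bases, 26 (20.2%) were switch components. The share was 6 of 139 (4.32%) for differences above 30 and up to 100 bases, 1 of 205 (0.488%) above that and up to 300 bases, and 0 of 575 above 300 bases. With the length-corrected percent the 4 classes held 26, 6, 1 and 3 components above 50 points. The median share change over the classes was 15.6, 8.04, 6.05 and 3.16 points by counts. Corrected for length it was 15.7, 8.17, 5.96 and 5.72 points, so the last 2 classes then hardly differed. These values cover all 1048 steady components of 2 transcripts. Reads shared by near-identical forms are divided by estimation, and the part of that division in the pattern was not tested.

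**Figure D5:**
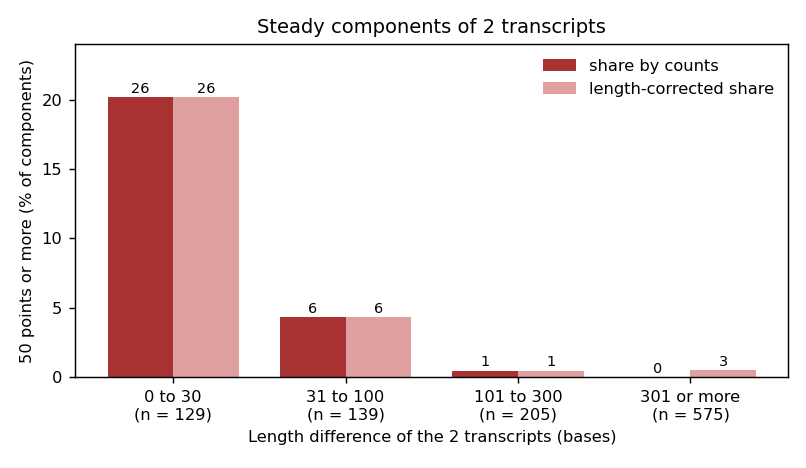
Percent of steady components of 2 transcripts (y axis) with a share change of at least 50 points, by the length difference of their transcripts (x axis, bases, with the number of components), for shares by counts and length-corrected shares; numbers on the bars count components. The bars drop with length difference, with 26 of 129 in the first class and 0 (counts) or 3 (length-corrected) of 575 in the last.

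At the far ends of length, comp117935_c0 exchanged forms of equal length: seq10 and seq3, both of 1508 bases, took 55.0% and 0% in BW and 0% and 76.0% in FW. In comp122026_c0 the leads differed by 1 base. Its seq3 (1316 bases) took 59.1% in BW and 1.51% in FW, and seq4 (1315 bases) took 0% and 47.4%. In comp121855_c0, also with leads 1 base apart, seq3 (1549 bases) took 100% in BW and 27.2% in FW. That distance holds by counts only: after correction for length the FW lead was seq2 (1066 bases, 44.5%), which is 483 bases shorter than seq3. At the other end, comp125417_c0 was led by a form of 5964 bases in BW and by one of 4052 bases in FW. After correction for length, seq5 (1046 bases) led it in both. In comp121824_c1 the leads were 4092 bases in BW (24.3% of the counts there) and 2426 bases in FW (52.4% there). After correction for length, seq12 (1709 bases) led it in BW with 32.3%, so the BW lead was then the shorter form. Its largest share change was then 40.43 points. In comp126505_c9 the leads were 2698 bases in BW (65.3%) and 1193 bases in FW (49.0%). In comp126542_c4 they were 3859 bases in BW (50.7%) and 4593 bases in FW (73.4%). Both components kept these leads after correction for length. The largest share change was then 45.03 points in comp126505_c9, below the limit of 50, and 58.52 points in comp126542_c4.

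The longer form led in BW in 53 of the 84 components and in FW in 29, with equal lengths in 2. In the other steady components with different leads the numbers were 532 in BW and 465 in FW. The median length of the lead over all 90 was 2796.5 bases in BW and 2709 bases in FW. The leads were within 100 bases of each other in 70 of the 84. Corrected for length, 75 of the 90 components kept both leads, and the longer form led in BW in 51 and in FW in 27. No error can be attached to the counts of longer forms with 1 library per salinity.

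The totals of the switch components were balanced in direction. The total was higher in BW for 45 and higher in FW for 45, and the median log2 ratio of BW to FW was 0.00. The median fold regardless of direction was 1.14, as in the other steady components. The total lay within 1.2-fold for 57 of the 90 (63.3%), against 63.8% of the others, and was at least 1.5-fold apart for 9 (10%), against 7.21%. The highest total relative to FW was 1.87-fold, in comp126479_c0, and the lowest was 0.537-fold, in comp117214_c0. The rule limits these values to less than 2-fold. They are summed counts, which grow with transcript length, and the rule sets no limit on length-corrected totals. In comp120932_c0, FPKM summed over transcripts was 7.56 in BW and 15.52 in FW, while the count total was 0.765 times as high in BW. In comp127162_c0 the summed FPKM was 5.88 in BW and 2.97 in FW, while the count total was 1.23 times as high in BW.

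Switch components had somewhat lower levels than the other steady components. Summed over transcripts, their FPKM (a read density corrected for transcript length and library depth) had a median of 12.3 in BW and 12.7 in FW, with ranges of 3.16 to 97.1 and 2.97 to 98.6. The other steady components had medians of 15.5 in BW and 15.4 in FW. By scaled sum of both libraries, 2.76% of 1158 steady components with 2000 to 3000 counts were switch components, 1.73% of 1620 with 3000 to 5000, 1.41% of 1279 with 5000 to 10000 and 1.47% of 817 above that. By number of transcripts the share was 3.15% of 1048 components with 2 transcripts, 1.82% of 1430 with 3 to 5, 1.79% of 1061 with 6 to 10 and 0.899% of 1335 with 11 or more. The lead transcript differed in 8.40% of the components with 2 transcripts and in 38.2% of those with 11 or more. A change of lead was thus more frequent, and a change of 50 points less frequent, where there were many forms. A change of 50 points needs a form with at least 50% of the counts in 1 library. That is harder to reach where counts are split over many forms, so nothing is read from its lower frequency.

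Correcting shares for transcript length kept most switches. In the authors' deposited percent of component, 72 of the 90 still changed by at least 50 points. That held for 1.7% of all steady components, the 72 included, and for 11 of the other 4784. The percent comes from the same libraries whose counts chose the components, so nothing is read from this contrast. All 33 components of 2 transcripts were among the 72, and their share change moved by at most 1.26 points. The other 18 had 3 or more transcripts and changed by 25.8 to 49.5 points, 6 of them by less than 40. The lowest value after correction was in comp125417_c0, where the long form seq12 took 56.1% of the counts in BW and 25.8% after correction for length. Its leading form after correction, seq5, stood at 53.6% in BW and 54.3% in FW.

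The authors' deposited table has a column of its own that marks transcripts as significant, and such marks are named calls here. The authors' deposited table calls 26 transcripts of the switch components, 14 of them higher in BW and 12 in FW. In all transcripts of the authors' deposited table, 0.223% are called, 0.104% as higher in BW and 0.118% as higher in FW. The calls and the share changes come from the same 2 libraries, so this is no independent check. The calls also rest on 1 library per salinity, so they hold no spread between fish or tanks. They lie in 15 switch components (16.7%), against 1.25% of all steady components. For 11 of the 15, the authors' deposited table calls at least 1 transcript in each direction. In comp87275_c0, for example, the authors' deposited table gives FPKM values of 68.0 in BW and 18.0 in FW for seq1. The log2 ratio of FW to BW there is -1.92. For seq2 it gives 29.1 in BW and 77.3 in FW, with a log2 ratio of 1.41. The same component thus appears in the authors' deposited table with 1 transcript higher in BW and 1 higher in FW.

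Most exchanged transcripts were not called there. Of 149 transcripts with a share change of at least 50 points, 25 are called in the authors' deposited table and 124 are not. The higher FPKM of the 2 libraries had a median of 39.6 for the called and 7.33 for those not called. The levels overlapped: the called went down to 13.52 and those not called up to 59.65. The lowest FPKM among all calls of the authors' deposited table, taking the higher library, is 13.31. The complete exchanges in comp123918_c4, comp124902_c7 and comp126930_c0, with 3.98 to 10.5 FPKM, are not called in it.

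Near the limit of 50 points, the components just inside were comp122060_c0 at 50, comp127492_c1 at 50.03 and comp123939_c0 at 50.5 points. Just outside were comp127378_c5 and comp125035_c1, both at 49.89, and comp126341_c1 at 49.8 points. In comp122060_c0 both forms are of 1913 bases; seq1 had 2231 counts in BW and 813 in FW, and seq2 had 0 and 813. The FW counts of its forms were exactly equal.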

How the data were processed

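RNA of 9 mixed tissues was sequenced in 1 library per salinity. Per the file headers, the authors deposited for each transcript an expected count, TPM, FPKM and its percent of the component. The authors' deposited table of the comparison gives a log2 fold (FW over BW), a p-value and an FDR per transcript. The assembler, the aligner and the counting tool are each not given in the sources used here. TPM values were deposited and were not used.

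Components were summed in Python 3.11.15 with pandas 2.3.3. Counts were scaled by library total. Shares are percent of the component's expected count. The lead is the transcript with most counts. Share changes carry Newcombe 95% intervals on rounded counts. TMM factors (edgeR 4.0.16) and DESeq2 1.42.0 size factors, in R 4.3.3 on rounded counts, served as alternative scalings only. The rule was run on simulated Poisson counts with known shares. The simulation held neither the division of reads between similar transcripts nor a spread between replicates, so it does not cover those errors. No test was possible with 1 library per group.

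The members and lists were chosen with earlier results of these data known. Named by rule were the 8 largest sums, the 8 largest share changes, the 4 largest and 4 smallest length differences of leads, the 2 with most transcripts and 3 on each side of 50 points. All other named components were picked after their values were seen.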

Additional observations from a re-analysis of the deposited data

How the results depend on the processing

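With 1 library per salinity, none could be left out. No paired analysis was possible because BW and FW have a single library apiece. TMM scaling, DESeq2 size factors and the removal of the upper limit on the sum gave the same 90 components. Shares from the authors' percent of component, or from FPKM, gave 83, of which 72 are among the 90; a total under 1.5-fold gave 81, no limit on the total 94, and an interval wholly above 50 points with counts halved 68. Of 79 alternative values, 57 stayed within 1.5 times (for the median length difference, within its binomial 95% range of 15 to 28 bases). Many of these could hardly move. Shares within a component do not depend on library scaling, and the upper limit on the sum had excluded no switch. Percent of component and FPKM share gave identical values. The tally of 57 is therefore no measure of robustness. The other values follow from which components enter. With a minimum of 200 counts there were 424 components, 394 with different leads, 85 with forms at 0 in each salinity, 243 led by the longer form in BW, and a median length difference of 44 bases. With a minimum of 2000 counts these were 35, 35, 9 and 22. At 40 points there were 189 components, 150 with different leads, 88 with the longer lead in BW, and a median difference of 32 bases. At 75 points there were 20 components, 20 with different leads, 12 with forms at 0 in each salinity, 11 with the longer lead in BW, and 6 with a call in the authors' deposited table. Among leads at least 100 bases apart, the longer led in BW in 9 and in FW in 5. In components of 2 transcripts, a restriction chosen after seeing the data, 32 had different leads, 4 had forms at 0 in each salinity, and 20 were led by the longer form in BW. In each of these settings the longer form led more often in BW. The settings share components and the same 2 libraries, so this is 1 observation and not repeated evidence. Depth limits the intervals of the components nearest 1000 counts most.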

Other observations

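Another 4 components changed by at least 50 points but had totals beyond 2-fold, so they are not among the switch components. In comp124678_c2, seq4 (2707 bases) took 84.3% in BW and 0% in FW, and seq7 (2750 bases) took 0% and 96.1%, on a total 0.424 times as high in BW. In comp119829_c0, seq1 (1452 bases) took 99.1% in BW and 47.5% in FW, on a total 2.11 times as high in BW. The totals of comp125042_c1 and comp127650_c1 were 0.420 and 2.16 times as high in BW.

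The switch components shared no leading component number with each other. Of the 90, 41 had a number of their own, and 49 shared it with 190 further components. Among those, 25 were steady, beside 18 switch components, and their largest share change had a median of 11.7 points and a maximum of 44.7 points, in comp125339_c5. The median in all other steady components was 10.5 points.

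A length difference that is a multiple of 3 would keep a reading frame if it lay in coding sequence, which the files do not show. The leads differed by a multiple of 3, with a difference of 0 counted as one, in 24 of 84 switch components (28.6%). This held in 378 of 997 other steady components (37.9%). Leads of equal length made up 2 of the 24 and 0 of the 378.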
